A study of Mus musculus with 6 samples.

Results

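The secreted frizzled-related proteins are a family of Wnt-binding proteins, followed here in endothelial cells sorted from skin of mice with and without APJ, the apelin receptor. The 5 family genes Sfrp1, Sfrp2, Sfrp4, Sfrp5 and Frzb were found on the array through the RefSeq accession of each probe. Each had 1 probe in a single spot, so the family makes up 5 of the 20018 genes that could be named on the array. The samples were 3 of APJ KO genotype in strain C57Bl/6J, set against 3 of wildtype genotype in the same strain. Per the labels each sample bears the number of a mouse, the cells were only sorted with no treatment afterwards, and nothing states how the APJ allele was made, which surface markers the sort used or how many animals gave RNA. An embryonic stage stands only in the names of the deposited files. Since separate animals per sample are not assured, p-values cover only the spread among the 6 samples, and having so few arrays limits precision.

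Wnt ligands signal by binding Frizzled receptors on the cell surface together with the co-receptors Lrp5 and Lrp6, which stabilises β-catenin, or through β-catenin-independent routes that orient cells. Secreted frizzled-related proteins carry a cysteine-rich domain like the Wnt-binding part of Frizzled and a netrin-like domain, and they bind Wnts outside the cell, mostly dampening the signal. Sfrp1, Sfrp2 and Sfrp5 form one subgroup by sequence, while Sfrp4 and Frzb, also called Sfrp3, form another. In skin, family members are best known from dermal fibroblasts and hair follicle mesenchyme, and Sfrp1 is a gene that the study itself followed in skin vessels.

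The family was near the limit of detection throughout. Agilent's software calls a spot well above background or not, and 10 of the 30 family spots got that call, 5 of 15 in APJ KO and 5 of 15 in wild type. The calls fell on different genes. Sfrp1 was called on 0 of 3 APJ KO arrays and 3 of 3 wild-type arrays, Sfrp2 on 2 of 3 and 0 of 3, and Sfrp5 on 3 of 3 and 2 of 3. Sfrp4 and Frzb were called on 0 of 6 arrays, as were 38.1% of the 55601 probes with a value on every array. The lowest processed signal called well above background lay between 10.6 and 12.4 on the APJ KO arrays and between 10.4 and 12.3 on the wild-type arrays. This is not a strict limit. The Sfrp1 spot of APJ KO replicate 3 and the Sfrp2 spot of wild type replicate 3 were above it on their own arrays without the call. No family spot was saturated or marked as an outlier.

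Levels below are log2 of the background-subtracted Cy3 signal minus the 75th percentile of the same array, and a difference is APJ KO minus wild type. A gene entered the test if its probe was well above background on every array of at least 1 group, which 2 of the 5 family genes, Sfrp1 and Sfrp5, met. Sfrp1 entered only through the wild-type arrays, an entry that favours a difference. Of the 2, neither passed limma's test at an adjusted p of 0.05, and over the 24221 genes and probes tested 135 passed, 0.557%, 90 of them higher and 45 lower in APJ KO. Blocking on the replicate number left 5 calls, and blocking on the slide gave 291. It was 21, 26 and 54 without APJ KO replicate 1, 2 and 3, and 36, 12 and 63 without wild type replicate 1, 2 and 3. Aplnr, the gene for APJ, read 1.90, 1.72 and 2.26 on the APJ KO arrays and 3.35, 3.78 and 3.83 on the wild-type arrays, so each array matched its label by this probe, whose place relative to the altered part of the gene is not known here. Apln, the gene for apelin, differed by 0.24 (limma adjusted p = 0.777).

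Sfrp1, on chromosome 8 (probe accession NM_013834), encodes a secreted antagonist of Wnt signalling. Its processed signal was 3.60, 5.81 and 13.3 in APJ KO replicates 1 to 3, against 49.6, 32.0 and 37.3 in wild type replicates 1 to 3. Every wild-type array was above every APJ KO array, and the dimmest wild-type spot was well clear of the brightest APJ KO spot. The software's own error for these spots was 3.10, 3.00 and 3.02 in APJ KO and 5.69, 4.50 and 4.57 in wild type. The APJ KO signals were thus 1.16, 1.94 and 4.39 times their error, and the wild-type signals 8.71, 7.12 and 8.16 times theirs.

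The raw spots showed the same split before any correction. The median pixel of the Sfrp1 spot was 31, 32 and 34 in APJ KO and 74, 56 and 61 in wild type, over a local background of 20, 19 and 22 in APJ KO and 20, 18 and 22 in wild type. Each array also carried 308 negative control spots, whose median was 33, 27.5 and 25 in APJ KO and 30, 30.75 and 25 in wild type. Of these control spots, 66.2%, 17.5% and 1.62% were at least as bright as Sfrp1 on APJ KO arrays 1 to 3, and 0%, 0.325% and 0.325% on wild-type arrays 1 to 3. In APJ KO replicate 1 the Sfrp1 spot therefore lay within the negative controls, whereas in replicate 3 it was brighter than most of them without being called.

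On the log2 scale Sfrp1 averaged -5.60 ± 0.76 in APJ KO and -2.94 ± 0.40 in wild type (SD, n = 3 each). Because no APJ KO array was well above background, its level there is given only as an approximate upper bound. At that bound the group mean of Sfrp1 was 3.34-fold lower in APJ KO. That bound sets each APJ KO array at its own signal or at the dimmest signal with the call there, whichever is higher, and leaves out the spread between arrays. In APJ KO replicate 3 the signal of 13.3 was above the dimmest signal with the call, 10.6, so its own signal was used. The bound is therefore not a strict detection limit, nor a minimum over slides and settings. The log2 difference was smaller in size within slide 2 (-1.57) and under a background correction with an offset (-0.57), both given below. The fitted difference, which takes the dim values as they stand, was -2.65 ± 0.39 (SE, 95% interval -3.60 to -1.71), a ratio of 6.29 of wild type over APJ KO. It missed the threshold, with a limma adjusted p of 0.0541 and an unadjusted p of 0.000369. Sfrp1 entered this fit only through the wild-type arrays, where it was high, so neither that p nor the interval counts as support. In a fit without the filter, over 49224 genes and probes, its limma adjusted p was 0.263 and its unadjusted p 0.000817. The exact two-sided permutation test gave p = 0.1, the smallest that 3 arrays against 3 allow.

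Being well above background on 0 APJ KO and 3 wild-type arrays, as Sfrp1 was, held for 16 of 55601 probes, 0.0288%, and the opposite pattern was found for 41, 0.0737%. Tested genes and probes whose arrays did not overlap were 12.2% of the total, 5.81% with APJ KO lower and 6.39% with APJ KO higher. The difference was -3.19 within slide 1, which held replicates 1 and 2 of both groups, and -1.57 within slide 2, which held replicate 3 of both. The slides were also the scanning batches. The sign was negative in all 16 other settings that gave a value, but the size depended strongly on how dim values were treated: -0.57 with the normexp background correction, an offset of 50 and quantile normalization together, and -1.74 with all values raised to the lowest signal well above background. The adjusted p was 0.0297 with that floor, an alternative chosen after seeing the data, and 0.0315 with a trended, robust variance. Over the other 14 settings it lay between 0.0501 and 0.263, the last without the filter on dim probes.

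**Figure D1:**
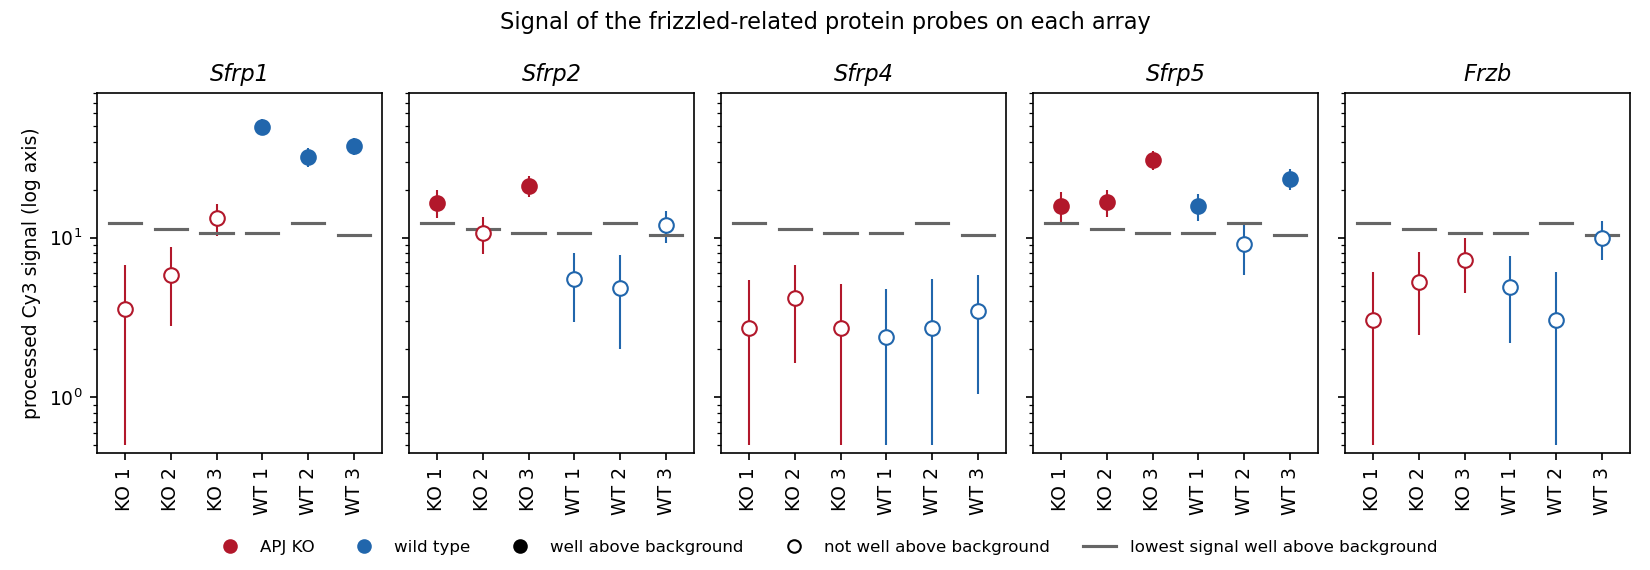
Processed Cy3 signal (log axis) of the 5 family probes on each array, APJ KO in red and wild type in blue. Filled points were called well above background, open points were not, vertical bars are the software's error for the spot, drawn no lower than the foot of the axis, and grey ticks mark the lowest signal called well above background on that array. Sfrp1 is filled on the 3 wild-type arrays only, Sfrp2 on 2 APJ KO arrays only, Sfrp5 on 5 arrays, and Sfrp4 and Frzb on none.

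**Figure D2:**
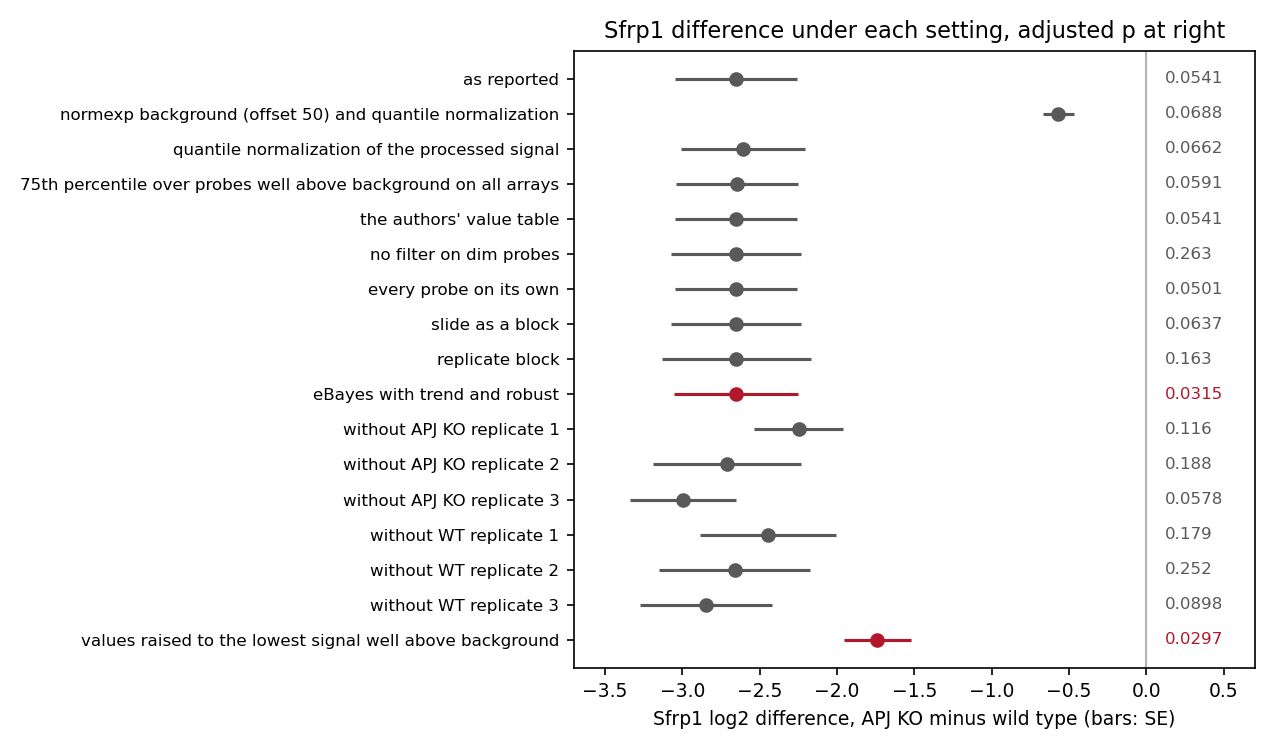
Log2 difference of Sfrp1, APJ KO minus wild type, as reported (top) and under each other setting, with bars for the SE and the limma adjusted p at the right, red where it is under 0.05. All points lie below 0, most between -3.00 and -2.25, and the settings with an offset or a floor for dim values lie at -0.57 and -1.74.

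Sfrp2, on chromosome 3 (probe accession NM_009144), encodes a family member abundant in dermal fibroblasts and differed in the opposite direction to Sfrp1. Its processed signal was 16.5, 10.7 and 21.1 in APJ KO, against 5.50, 4.88 and 11.9 in wild type. Relative to each array's own 75th percentile the levels were -4.21, -4.60 and -4.24 in APJ KO and -5.70, -5.68 and -4.98 in wild type, so the groups did not overlap on the scaled values. On the unscaled signal APJ KO replicate 2 was below wild type replicate 3. The group means were -4.35 ± 0.22 in APJ KO and -5.45 ± 0.41 in wild type (SD, n = 3 each), and the difference was 1.11.

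No test of Sfrp2 was made in the filtered fit, since neither group had the call on all of its arrays. No bound on its fold is given, because APJ KO replicate 2 was not well above background either. In a fit without the filter, over 49224 genes and probes, its limma adjusted p was 0.494 and its unadjusted p 0.00445. The exact permutation p was 0.1, the smallest possible. The difference was 1.29 within slide 1 and 0.74 within slide 2, but 0.19 with normexp, the offset and quantile normalization together and 0.37 with the floor. Being called on 2 APJ KO and 0 wild-type arrays was shared with 163 probes in all, 0.293%, and being called on 0 APJ KO and 2 wild-type arrays was found for 134, 0.241%.

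Sfrp5, on chromosome 19 (probe accession NM_018780), encodes a secreted Wnt inhibitor best known from fat tissue. Its processed signal was 15.8, 16.7 and 30.7 in APJ KO, against 15.8, 9.11 and 23.5 in wild type. Both groups had their highest value on slide 2, and the groups overlapped. Sfrp5 averaged -3.97 ± 0.29 in APJ KO and -4.32 ± 0.41 in wild type (SD, n = 3 each). The difference of 0.35 ± 0.24 (SE) did not pass (limma adjusted p = 0.971, exact permutation p = 0.4). Its 95% interval ran from -0.22 to 0.92, which spans 0. By slide the difference was 0.37 on slide 1 and 0.31 on slide 2, and it was 0.12 when wild type replicate 2, the 1 array without the call, was left out.

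Sfrp4, on chromosome 13 (probe accession NM_016687), and Frzb, on chromosome 2 (probe accession NM_011356), were not well above background anywhere. Sfrp4 read 2.73, 4.21 and 2.71 in APJ KO and 2.38, 2.74 and 3.45 in wild type, between 0.997 and 1.64 times the software's error. Frzb, which encodes a Wnt antagonist first found in cartilage, read 3.06, 5.26 and 7.20 in APJ KO and 4.94, 3.06 and 9.95 in wild type, between 0.993 and 3.66 times its error. Neither gene separated the groups, and no fold is given because both groups have only an upper bound. Their exact permutation p was 0.9 for Sfrp4 and 0.7 for Frzb, and the probes show only that no level above the arrays' detection limit was recorded.

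Some of the other secreted Wnt antagonists were well measured in the same cells. Of 13 listed, all were on the array and 6 were tested, 5 of them with a difference above 0 and a median of 0.11, against -0.02 over all genes and probes tested. None passed limma's adjusted threshold. Dkk3, a divergent member of the Dickkopf family, read -1.31, -1.14 and -1.29 in APJ KO and -1.70, -1.71 and -1.75 in wild type. Every APJ KO array was above every wild-type array, and the difference of 0.47 ± 0.09 (SE, n = 3 per group) had a limma adjusted p of 0.102. Igfbp4, an IGF-binding protein that also blocks Wnt receptors, differed by 0.15 and Tpbg, a membrane glycoprotein that inhibits Wnt signalling, by 0.14. The antagonists Dkk1, Wif1, Cer1 and Draxin were not well above background on any array.

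Wnt ligands were mostly dim. Of 19 on the array 6 were tested, with 3 above 0 and 3 below, a median of -0.01 and none past the threshold. Wnt9a differed by -0.69 ± 0.21 (SE, limma adjusted p = 0.361 with 3 arrays per group) and was well above background on 1 of 3 APJ KO and 3 of 3 wild-type arrays. It thus entered the test only through the wild-type arrays, where it was higher, an entry that favours a difference. Wnt16 differed by -0.28 and Wnt5a, a ligand of the β-catenin-independent routes, by 0.12. Wnt2, Wnt2b, Wnt3a, Wnt8a and Wnt9b were not called on any array.

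Receptors, by contrast, were present in both groups. Of 21 Frizzled receptors and co-receptors 18 were well above background on all 6 arrays, and their summed signal, in multiples of the array's 75th percentile, was 74.6 to 78.6 in APJ KO and 72.7 to 77.4 in wild type. None passed, and the median difference was 0.02 with 10 above 0 and 8 below. Fzd9 differed by -0.33 ± 0.17, Fzd5 by -0.20 ± 0.11, and Tspan12, which helps Fzd4 respond to norrin, by 0.18 ± 0.10 (SE; 3 arrays per group; limma adjusted p from 0.781 to 0.87). In the R-spondin arm, which raises receptor levels at the surface, 4 of 10 genes were tested and none passed. There Rspo3, an R-spondin made by endothelium, differed by 0.25, Rspo1 by -0.37 and the ubiquitin ligase Znrf3 by -0.04.

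Downstream of the receptors the pathway showed no call in either direction. Of 25 intracellular transducers 23 were tested, with 10 above 0, 13 below and a median of -0.00254. Prickle1, a planar polarity protein, differed by -0.18, the co-repressor Tle2 by 0.40 and the β-catenin partner Bcl9 by -0.18. Of 20 Wnt/β-catenin targets 15 were tested, 10 above 0 and 5 below, with a median of 0.01. The list was not divided by whether the pathway raises or lowers a target, so these counts give no direction of signalling. Tnfrsf19, a TNF receptor family member, read -0.46, -0.22 and -0.35 in APJ KO and 0.15, 0.02 and 0.21 in wild type. These groups did not overlap, and the difference of -0.47 ± 0.10 (SE, n = 3 per group) had a limma adjusted p of 0.162. Apcdd1, a Wnt-induced inhibitor, differed by -0.43 and Slc2a1, the glucose transporter of barrier endothelium, by 0.23.

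Over the 6 lists together 69 of 103 genes were tested and 0 passed limma's adjusted threshold in either direction, also in the 17 other settings. At an unadjusted p under 0.05 there were 4, 5.80%, against 8.02% over everything tested. Their arrays did not overlap for 10, 14.49%, against 12.2% over everything tested. Both shares of the pathway were close to those of the whole array.

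**Figure D3:**
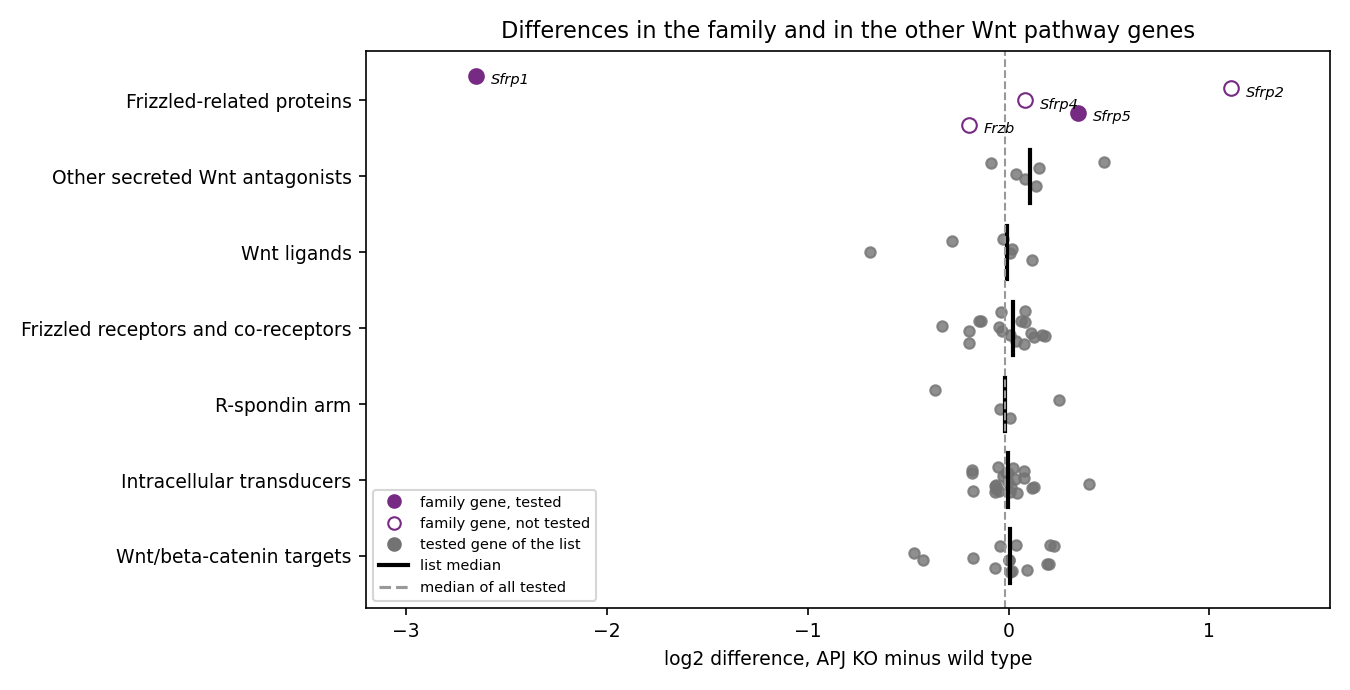
Log2 differences, APJ KO minus wild type, of the 5 family genes (purple, open where not tested) and of the tested genes in 6 lists of other Wnt pathway genes (grey), with list medians as black bars and the median of everything tested as a dashed line. Sfrp1 lies at -2.65 and Sfrp2 at 1.11, while the tested genes of the lists lie between -0.69 and 0.47.

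The sorted cells matched their label. All 12 endothelial markers, among them Pecam1, Cdh5 and Kdr, were well above background on every array, and their summed signal was 962 to 1040 multiples of the 75th percentile in APJ KO and 927 to 1020 in wild type. Their median difference was 0.02, with Flt1, a VEGF receptor, at 0.26, Eng, a TGF-β co-receptor, at 0.27 and the transcription factor Erg at -0.13. In bulk RNA, fewer cells of a type and less RNA per cell cannot be told apart, which bears on Sfrp1 and Sfrp2 since both are also made by dermal mesenchyme. The 12 fibroblast and dermal mesenchyme markers summed to 6.83 to 10.9 in APJ KO and 7.28 to 9.50 in wild type, with 6 to 10 and 9 to 11 of them well above background per array. The ranges overlapped, and Dpt was called on no array. The 9 mural markers summed to 3.62 to 4.37 in APJ KO and 3.40 to 4.37 in wild type, Myh11 being called on no array.

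Over all 7 marker lists 49 of 70 genes were tested and 0 passed limma's adjusted threshold, while 12 had an unadjusted p under 0.05, 24.5%, against 8.02% over everything tested. Of the 12, 7 were macrophage genes with a difference above 0. Among these, Lyz2, C1qa, C1qc and Adgre1 entered the test only through the APJ KO arrays, where they were higher. Their p, and the 24.5% that includes them, therefore do not count as support. In other settings the macrophage genes Aif1, C1qa and Lyz2 each passed once, blocked on the slide, blocked on the replicate number and without wild type replicate 3. For C1qa and Lyz2 that pass followed the same entry and is no support either. The mesenchymal genes Twist2, Dcn and Postn differed by -0.51, -0.57 and -1.09, and of the 8 tested fibroblast genes 3 were above 0, Col3a1 (0.20), Fbln1 (0.06) and Lum (0.06), named after their values were seen, and 5 below. The mural genes Abcc9, Notch3 and Pdgfrb differed by 0.42, -0.84 and -0.57. The median was -0.145 over the tested fibroblast genes and -0.01 over 6 tested mural genes. The 12 keratinocyte markers summed to 11.5 to 12.7 in APJ KO and 11.2 to 38.8 in wild type, the highest being wild type replicate 3, with 9 to 11 and 8 to 11 of them well above background per array. On the scaled values that array had the lowest Sfrp1 and the highest Sfrp2 level of the wild-type arrays, and without it the differences were -2.85 for Sfrp1 and 1.35 for Sfrp2. All 9 tested keratinocyte genes were below 0 with a median of -1.05, among them Sfn at -0.84, Krt14 at -1.31 and Krt10 at -1.05. The keratinocyte sums in APJ KO rest mostly on Trp63, named after its values were seen. Trp63 averaged 3.06 in APJ KO and 3.16 in wild type on the log2 scale, a difference of -0.10. The 9 macrophage markers summed to 10.6 to 11.3 in APJ KO and 9.91 to 13.2 in wild type. These sums rest mostly on Csf1r, the brightest of the 9 and named after its values were seen. Csf1r averaged 2.70 in APJ KO and 2.93 in wild type on the log2 scale, and its difference of -0.23 was the only one below 0. All 9 were well above background on each APJ KO array and 5 to 9 on the wild-type arrays. Of the 9 differences 8 were above 0, with a median of 1.11 and Lyz2, C1qa and C1qc at 1.83, 1.79 and 1.91. Schwann and melanocyte markers summed to 0.567 to 0.911 in APJ KO and 0.704 to 0.808 in wild type, with Sox10 at -0.11 and Pmel at 0.12. Skeletal muscle markers summed to 2.77 to 3.62 in APJ KO and 2.84 to 3.71 in wild type, with Acta1 at -0.15 and Tnnt1 at -0.08, and Myod1, Myog, Ttn, Myf5 and Pax7 were called on no array. The part of these cells in the Sfrp1 and Sfrp2 differences was not tested.

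**Figure D4:**
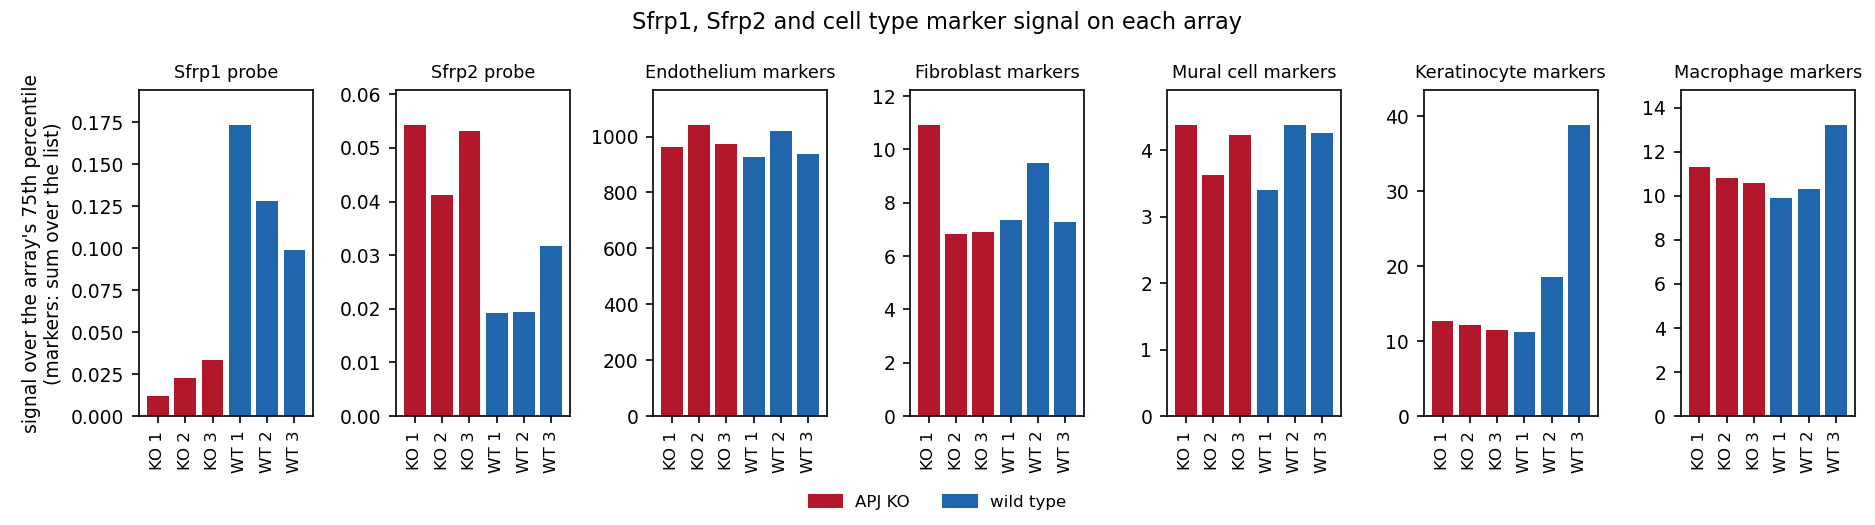
Signal of the Sfrp1 and Sfrp2 probes and summed signal of 5 cell type marker lists on each array, in multiples of the array's 75th percentile, APJ KO in red and wild type in blue (each panel has its own axis from 0). Sfrp1 is lower and Sfrp2 higher on all APJ KO arrays, the fibroblast and mural sums overlap between the groups, and the keratinocyte sum stands at 38.8 in wild type replicate 3.

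By pattern over the 6 arrays, the tested genes most like Sfrp1 were Ankub1 (Pearson r = 0.997), Lama1, a laminin chain (0.995), Nipsnap1 (0.989) and Hapln3 (0.986). Their own differences were -0.36, -0.45, -0.22 and -0.34, so they followed the order of the arrays at a far smaller size, and none passed limma's adjusted threshold. Most like Sfrp5 were Epdr1 (0.995), Erich1 (0.993), Gzmb (0.982) and Bex4 (0.981). An r above 0.9 was reached by 261 of the tested genes and probes with Sfrp1, 1.08%, and by 214 with Sfrp5, 0.884%. These r describe 6 arrays that share 2 slides and 2 genotypes, and for Sfrp1 the 3 APJ KO points are signals not well above background.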

How the data were processed

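RNA of 3 APJ KO and 3 wild-type samples was labelled with Cy3 and hybridised to one-colour arrays, per the labels. The deposited scanner files hold a linear fluorescence intensity per spot, written by Agilent Feature Extraction 10.7.3.1, which subtracted and detrended the background, per the file headers. Nothing had been scaled between arrays. The authors' deposited value table is the same intensity times 1 constant per array (2.29 to 3.69, within a relative deviation of 5e-10), linear and not centred, with column medians of 66.98, 60.3 and 63.25 in APJ KO and 63.46, 62.09 and 65.15 in wild type. How those constants were chosen is not stated by the labels or headers.

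Spots marked as outliers (126 to 179 per array) were left out, intensities taken to log2, the array's 75th percentile (250.4 to 398.4) subtracted, and spots of a probe averaged. Of 55681 probes 26413 received a symbol through RefSeq accessions without version, and 50.3% to 57.97% were well above background per array. For each symbol the probe with the highest mean level was taken. Genotype was fitted with limma 3.58.1 in R 4.3.3, with Benjamini-Hochberg adjustment over all 24221 tested. The fit was tested on simulated data. Same-numbered samples deviated together (r = 0.233, 0.152 and 0.649 for numbers 1, 2 and 3), by the data alone. Arrays on slide 1 did so at higher r across numbers (0.279 and 0.358), so the data show no pairing by number there. Number and slide cannot be told apart for number 3. No 2 arrays shared values. For the normexp alternative the spot median stood in for the spot mean. The members and gene lists were chosen with earlier results of these data known. Named beside the family were Aplnr, up to 3 genes of each list by smallest unadjusted p, and the 4 genes most like a tested member; 1 gene that this rule takes is not reported here.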

Additional observations from a re-analysis of the deposited data

How the results depend on the processing

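Sfrp1 kept a negative difference in all 16 alternatives and Sfrp5 a positive one in all 16. Sfrp1 passed limma's threshold in 2, at -2.65 (adjusted p = 0.0315) with a trended, robust variance and at -1.74 (0.0297) with dim values raised to the lowest signal well above background, an alternative added after seeing the data. In both, Sfrp1 entered only through the wild-type arrays, where it was high, and without the filter its adjusted p was 0.263. Leaving out 1 array gave -3.00 to -2.25 for Sfrp1, 0.12 to 0.51 for Sfrp5, 0.98 to 1.35 for Sfrp2, -0.27 to 0.36 for Sfrp4 and -0.47 to 0.11 for Frzb, and 12 to 63 calls over all genes. Sfrp4 and Frzb, called nowhere, took values of either sign. Sfrp2 was 0.19 with normexp, an offset of 50 and quantile normalization together, 1.13 with quantile normalization alone, and 0.37 with the floor. An offset and a floor both compress dim signals by construction. The count of 135 calls became 3 without a filter on dim probes, 291 when blocked on the slide and 5 when blocked on the replicate number; the cause was not tested. With the replicate number as a block the adjusted p was 0.163 for Sfrp1 and 0.537 for Sfrp5, and the block changed no family call. Restricting the test to probes well above background on all 6 arrays left no family gene to test, and Sfrp2, Sfrp4 and Frzb got a p only without the filter or, for Sfrp2, without APJ KO replicate 2 (adjusted p = 0.242). Without that array Sfrp2 entered only through the APJ KO arrays, where it was higher, so that p does not count as support. Signal over background limits every family value.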

Other observations

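Of the 16 probes well above background on 3 wild-type and 0 APJ KO arrays, 5 had a gene symbol. Beside Sfrp1 they were Fam155a, which encodes an accessory subunit of the NALCN channel, Sybu, which encodes syntabulin, Ccdc182 and Zfp882. With APJ KO bounded as for Sfrp1, the group mean of Fam155a was 4.24-fold lower there, that of Sybu 1.64-fold and that of Ccdc182 1.41-fold. These folds leave out the spread between arrays and are not minimum effects. The Zfp882 probe was not the one used for its gene. These genes were chosen after their values were seen, as all those with a symbol in this pattern. They entered the fit only through the wild-type arrays, where they were high, so no p is given for them. Of the 41 probes with the opposite pattern, 19 had a symbol.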
